A study of Mus musculus with 6 samples.

Results

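Peaks that lie in the second or a later intron of a gene, away from repeats, were taken from 4 genome-wide lists of binding sites of NRF2, the transcription factor encoded by Nfe2l2. A peak was a member when its annotation placed it in intron 2 or later of a transcript and its detailed annotation named no repeat element. Of 16057 peaks in the 4 lists, 3834 met this rule. Positions, annotations and scores are those the authors deposited, in the mm10 mouse genome build, and each window spans 300 bp. Cells were fibroblasts cultured from mouse embryos (MEFs, strain 129S6/SvEvTac). The 4 groups were GCN2-/- cells (GCN2 KO) kept for 24 h in DMEM that lacked leucine (GCN2 KO no-Leu), GCN2 KO cells in complete DMEM (GCN2 KO Leu), wild-type cells that lacked leucine (WT no-Leu) and wild-type cells in complete DMEM (WT Leu). Each group is 1 library made with an antibody to NRF2. Each list was called against an input from complete medium of the same genotype, so the leucine-free libraries had no input from leucine-free cells. The labels do not say whether either genotype is a single clone, and a list of NRF2 peaks does not measure the loss of GCN2.

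NRF2 belongs to the cap'n'collar family and binds DNA as a partner of a small Maf protein. In unstressed cells KEAP1 delivers it for degradation, and oxidants or electrophiles release it. The complex recognises the antioxidant response element (ARE), whose core reads TGACNNNGC, where N is any base. That element overlaps the site of the AP-1 family, TGANTCA, which Fos and Jun proteins and the repressor BACH1 in its own Maf complex can share in part. GCN2, encoded by Eif2ak4, is the kinase that senses uncharged tRNA in cells short of an amino acid and raises translation of the transcription factor ATF4. The study asked where NRF2 sits when leucine is withdrawn and when GCN2 is missing.

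The sequences below show the letters under those members for which a sequence was at hand, because they carry or lack the ARE core. They come from RefSeq promoter windows of 300 bases on GRCm38.p6, the assembly of mm10. Of the 3834 members, 19 overlapped such a window, at 13 places, and 4 of the 13 places were met in 2 or more lists. The stretch shared by window and peaks is given for these 4, each read 5′ to 3′ on the strand named, with matches to TGACNNNGC or TGANTCA on either strand in capitals. The window is the promoter of Gm36043 at the Cd274 place, of Gm46952 at Gm16039, of Gm41161 at Cryl1 and of Slc20a1 itself at Slc20a1. Members that meet a promoter window need not resemble the rest. TGACTCAGC holds both motifs in overlapping positions.
Cd274, intron 6 of 6, chr19:29384967-29385201, minus strand: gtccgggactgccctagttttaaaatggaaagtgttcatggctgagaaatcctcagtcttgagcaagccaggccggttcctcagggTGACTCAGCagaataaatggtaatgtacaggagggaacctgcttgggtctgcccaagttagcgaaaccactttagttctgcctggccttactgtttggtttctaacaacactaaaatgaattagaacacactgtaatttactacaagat
Slc20a1, intron 6 of 10, chr2:129206846-129207119, plus strand: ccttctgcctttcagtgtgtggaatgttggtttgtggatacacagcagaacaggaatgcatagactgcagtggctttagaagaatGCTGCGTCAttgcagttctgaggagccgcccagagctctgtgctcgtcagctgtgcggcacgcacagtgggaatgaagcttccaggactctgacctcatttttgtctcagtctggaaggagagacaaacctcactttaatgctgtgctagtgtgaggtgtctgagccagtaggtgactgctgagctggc
Gm16039, intron 2 of 3, chr6:8345527-8345814, minus strand: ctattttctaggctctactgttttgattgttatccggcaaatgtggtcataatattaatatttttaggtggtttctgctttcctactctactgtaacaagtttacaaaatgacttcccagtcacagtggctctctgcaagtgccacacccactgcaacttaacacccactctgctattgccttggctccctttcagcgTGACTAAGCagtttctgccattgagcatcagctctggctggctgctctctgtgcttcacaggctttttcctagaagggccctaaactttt
Cryl1, intron 2 of 7, chr14:57376926-57377156, plus strand: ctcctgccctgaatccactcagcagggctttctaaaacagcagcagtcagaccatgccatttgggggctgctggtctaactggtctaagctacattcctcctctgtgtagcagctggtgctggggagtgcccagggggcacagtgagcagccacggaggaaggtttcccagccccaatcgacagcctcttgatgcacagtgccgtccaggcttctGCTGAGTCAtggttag

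All 4 of these places held an ARE core, and none of the 9 places met in a single list held either motif. The stretches searched were unequal, 231 to 288 bases at the 4 places and 17 to 220 bases at the 9, and shorter than the 300-base windows of the background. Over all 32851 promoter windows, 12.4% held the ARE core, 7.81% held the AP-1 motif and 1.17% held both. A match is a description of these letters only. At Cd274, which encodes the checkpoint ligand PD-L1, the core lay -6 bp from the peak centre in the GCN2 KO no-Leu list, -6 bp in the WT no-Leu list and -7 bp in the WT Leu list. The peak ranked 50 of 4600 by score in the GCN2 KO no-Leu list and 231 of 3141 in the GCN2 KO Leu list, where its window was annotated to a repeat. In WT cells it ranked 181 of 5980 without leucine and 359 of 2336 in complete medium. Cd274 thus stood higher in each list without leucine than in its partner list.

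At Slc20a1, a sodium-dependent phosphate transporter gene, the peak ranked 670 in the GCN2 KO no-Leu list, 124 in the GCN2 KO Leu list and 1403 in the WT no-Leu list, and the WT Leu list held none. The core lay -34 bp from the centre in GCN2 KO no-Leu cells, -13 bp in GCN2 KO Leu cells and -9 bp in WT no-Leu cells. The place in intron 2 of Gm16039 had a peak in both GCN2 KO lists, at rank 255 without leucine and 485 in complete medium, and in neither WT list. Cryl1, whose product is a crystallin-like dehydrogenase, had a peak of low score, at rank 2829 of 4600 in GCN2 KO no-Leu cells and 1876 of 2336 in WT Leu cells, with the core 69 bp from the centre in the GCN2 KO no-Leu list and 15 bp in the WT Leu list.

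Later-intron peaks outside repeats made up between 21.9 and 25.4% of each list. They were 1008 of 4600 peaks in GCN2 KO no-Leu cells, or 21.9% (95% exact Clopper-Pearson interval 20.7 to 23.1%), and 798 of 3141 in GCN2 KO Leu cells, or 25.4% (23.9 to 27.0%). In WT cells they were 1472 of 5980 without leucine, or 24.6% (23.5 to 25.7%), and 556 of 2336 in complete medium, or 23.8% (22.1 to 25.6%). All intervals here cover counting error only. With 1 library per group, differences between lists have no replicate behind them, no p-value is given, and sequencing depth is unknown. The rule's edge lies between intron 1 and intron 2. Outside repeats, intron 1 held 387 peaks in GCN2 KO no-Leu cells, 265 in GCN2 KO Leu cells, 571 in WT no-Leu cells and 229 in WT Leu cells. Intron 2 held 207 peaks, or 20.5% of the members, in GCN2 KO no-Leu cells, 173 (21.7%) in GCN2 KO Leu cells, 311 (21.1%) in WT no-Leu cells and 133 (23.9%) in WT Leu cells. Later-intron peaks set aside because their windows touched a repeat numbered 336 in GCN2 KO no-Leu, 228 in GCN2 KO Leu, 450 in WT no-Leu and 189 in WT Leu cells.

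The members reached deep into long genes. The median intron number was 6 in the WT no-Leu list and 5 in each of the others, and the highest was 109 in GCN2 KO no-Leu, 80 in GCN2 KO Leu, 87 in WT no-Leu and 78 in WT Leu cells. The share in the last intron of the transcript was 11% in GCN2 KO no-Leu, 11.2% in GCN2 KO Leu, 12.8% in WT no-Leu and 11% in WT Leu cells. Host genes numbered 838 in GCN2 KO no-Leu, 685 in GCN2 KO Leu, 1204 in WT no-Leu and 502 in WT Leu cells, a host being the gene whose transcript the annotation names and whose span holds the peak. The median host length was 88.3 kb in GCN2 KO no-Leu, 80.4 kb in GCN2 KO Leu, 68.8 kb in WT no-Leu and 96.0 kb in WT Leu cells, against 17.2 kb for all 21900 protein-coding genes of the RefSeq table. A long gene offers more intronic sequence, and host length was not adjusted for here. The host was also the gene with the nearest transcription start site (TSS) for 60.4% of members in GCN2 KO no-Leu, 61.0% in GCN2 KO Leu, 59.2% in WT no-Leu and 59.1% in WT Leu cells, so a nearest-gene label names another gene for the rest. Of protein-coding genes, 3.73% hosted a member in GCN2 KO no-Leu cells, 3.05% in GCN2 KO Leu cells, 5.37% in WT no-Leu cells and 2.23% in WT Leu cells.

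Distance from the nearest TSS was the plainest difference from first-intron peaks, and intron position sets much of it by construction. The median absolute distance of members was 31.7 kb (29.6 to 34.6 kb) in GCN2 KO no-Leu cells, 28.6 kb (25.4 to 33.1 kb) in GCN2 KO Leu cells, 25.6 kb (23.9 to 27.9 kb) in WT no-Leu cells and 31.3 kb (27.2 to 35.4 kb) in WT Leu cells. For first-intron peaks outside repeats the medians were 9.62 kb in GCN2 KO no-Leu, 12.4 kb in GCN2 KO Leu, 8.58 kb in WT no-Leu and 10 kb in WT Leu cells. The share of members within 10 kb of a TSS was 17.1% in GCN2 KO no-Leu, 21.1% in GCN2 KO Leu, 22.4% in WT no-Leu and 18.3% in WT Leu cells. The share beyond 100 kb was 17.4% in GCN2 KO no-Leu, 15.7% in GCN2 KO Leu, 12.8% in WT no-Leu and 16.5% in WT Leu cells. The share upstream of the nearest TSS was 25.4% in GCN2 KO no-Leu, 23.8% in GCN2 KO Leu, 26.2% in WT no-Leu and 26.4% in WT Leu cells, and that TSS then belongs to another gene or to a further start of the host. The site in intron 6 of 21 of Exoc6b, an exocyst subunit gene, shows the scale, at 145509 bp from the TSS in GCN2 KO no-Leu cells.

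**Figure D1:**
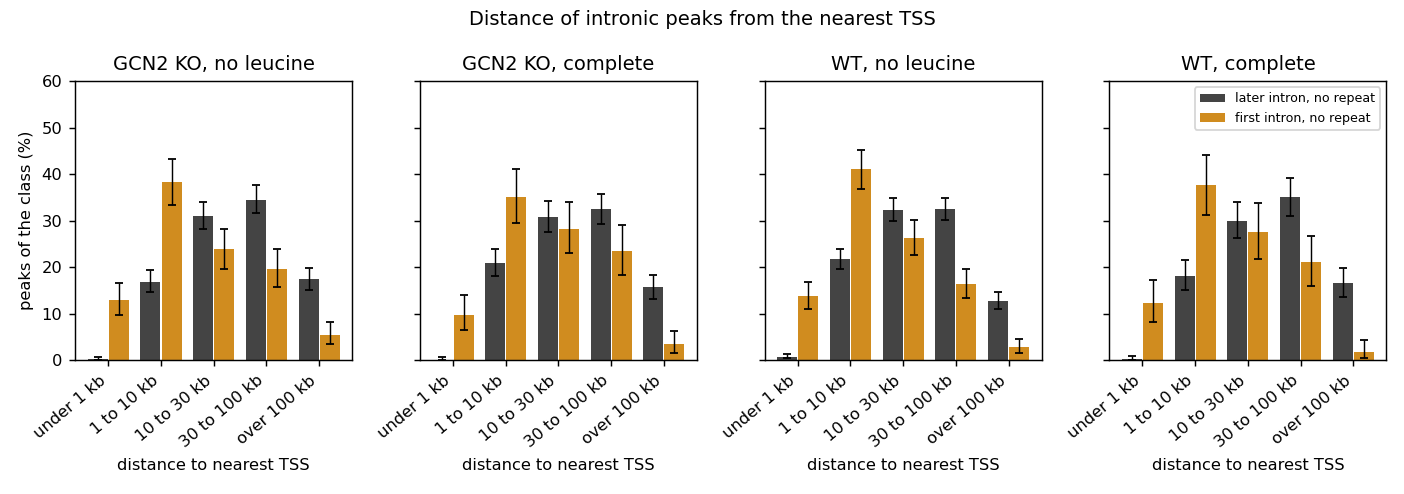
Share of later-intron peaks (dark bars) and first-intron peaks (orange bars), both outside repeats, by absolute distance to the nearest TSS in each list; whiskers are 95% exact binomial intervals. The bin under 1 kb holds at most 0.747% of later-intron peaks and at least 9.81% of first-intron peaks in each list.

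Base composition differed little between later-intron and first-intron peaks. The median GC fraction of the windows was 0.525 in GCN2 KO no-Leu cells, 0.525 in GCN2 KO Leu cells, 0.525 in WT no-Leu cells and 0.515 in WT Leu cells. First-intron peaks had medians between 0.525 and 0.532, and all peaks had medians between 0.512 and 0.522. Promoter peaks had higher medians, between 0.548 and 0.568, and later-intron peaks in repeats lower ones, between 0.495 and 0.512. The members' median CpG fraction was 0.0133 in each list, against 0.0267 to 0.0333 for promoter peaks. Among the strongest members GC ranged widely. The window in Rxra had between 0.625 and 0.631 over the 4 lists, while that in Itga8 had between 0.425 and 0.445.

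By score, members took a smaller share of the very top of each list than of the whole list, by less than counting error in 3 of the 4. Members filled 18.8% (15.3 to 22.6%) of the highest-scoring 10% in GCN2 KO no-Leu cells, 17.7% (13.7 to 22.5%) in GCN2 KO Leu cells, 21.4% (18.1 to 25%) in WT no-Leu cells and 18.9% (14.1 to 24.5%) in WT Leu cells. Of the members themselves, 8.63% were in that top 10% in GCN2 KO no-Leu cells, against 12.1% of first-intron peaks. The shares were 6.89% of members against 16.2% of first-intron peaks in GCN2 KO Leu cells, 8.49% against 10.9% in WT no-Leu cells and 7.91% against 14.4% in WT Leu cells. The exact intervals of the 2 classes do not overlap in the GCN2 KO Leu list, at 5.23 to 8.88% for members and 12 to 21.2% for first-intron peaks. They overlap in the other 3 lists. Still, between 20 and 22 members stood among the 100 highest peaks of each list.

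The strongest member was the same site in every list. It lies in intron 2 of 9 of Rxra, the gene of retinoid X receptor alpha, the shared partner of many nuclear receptors, at chr2:27740303-27740603 in GCN2 KO no-Leu cells and 29870 bp from the TSS. Its rank was 1 in GCN2 KO no-Leu cells, 2 in GCN2 KO Leu cells, 2 in WT no-Leu cells and 1 in WT Leu cells, with the authors' scores at 1188 in GCN2 KO no-Leu, 997 in GCN2 KO Leu, 1343 in WT no-Leu and 1381 in WT Leu cells. Scores depend on depth and are used here only within a list. The start of the window moved by no more than 9 bp between lists. Pparg, a nuclear receptor gene whose product pairs with RXR and drives fat-cell differentiation, had a site in intron 6 of 6, 58436 bp from the TSS in GCN2 KO no-Leu cells. Its ranks were 40 in GCN2 KO no-Leu, 39 in GCN2 KO Leu, 39 in WT no-Leu and 22 in WT Leu cells.

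Genes of enzymes of the pentose phosphate pathway, of NAD phosphorylation and of glutathione use also held sites. Tkt, which encodes transketolase of the pentose phosphate pathway, had a site in intron 4 of 13 that ranked 4 in GCN2 KO no-Leu cells, 4 in GCN2 KO Leu cells, 10 in WT no-Leu cells and 17 in WT Leu cells. The nearest TSS is that of the microRNA gene Mir3076, at -7525 bp in the first of these lists, so a nearest-gene label does not name Tkt. Gstm1, a glutathione S-transferase of the mu class, had a site in its last intron, 7 of 7, at rank 59 in GCN2 KO no-Leu, 33 in GCN2 KO Leu, 23 in WT no-Leu and 11 in WT Leu cells. Its neighbour Gstm6 had one in intron 7 of 7 at rank 29 in GCN2 KO no-Leu, 47 in GCN2 KO Leu, 55 in WT no-Leu and 87 in WT Leu cells, and Gstm3 one in intron 7 of 7 at rank 312 in GCN2 KO no-Leu cells, 396 in WT no-Leu cells and 428 in WT Leu cells. Thus 3 genes of this cluster carry a site in their last intron, 4547, 4071 and 4352 bp from their TSS in GCN2 KO no-Leu cells. These genes are near copies, reads were 50 bp, and the sources used here do not say how reads with several matches were treated, so signal may be split among them. Nadk2, the mitochondrial NAD kinase, ranked 56 in GCN2 KO no-Leu, 53 in GCN2 KO Leu, 79 in WT no-Leu and 298 in WT Leu cells at intron 4 of 11. Mgst2, a microsomal glutathione S-transferase, had a site in 3 lists at rank 503 in GCN2 KO no-Leu cells, 581 in GCN2 KO Leu cells and 553 in WT no-Leu cells.

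Genes of heme synthesis and membrane transport also held sites in all 4 lists. Fech, the ferrochelatase that completes heme, had a site in intron 2 of 10 that ranked 114 of 4600 in GCN2 KO no-Leu cells, 214 of 3141 in GCN2 KO Leu cells, 1403 of 5980 in WT no-Leu cells and 55 of 2336 in WT Leu cells. Fech therefore stood far lower in the WT no-Leu list than in the others. Slc2a1, the glucose transporter GLUT1, ranked 1222 in GCN2 KO no-Leu, 485 in GCN2 KO Leu, 82 in WT no-Leu and 420 in WT Leu cells at intron 2 of 9, 12737 bp from the TSS in GCN2 KO no-Leu cells. Its highest place was in WT no-Leu cells. Abcc5, an export pump of the multidrug resistance family, ranked 328 in GCN2 KO no-Leu, 214 in GCN2 KO Leu, 123 in WT no-Leu and 399 in WT Leu cells at intron 17 of 29. In the WT Leu list the window was annotated to a repeat.

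Genes of chromatin, trafficking, lysosome and matrix proteins also held sites in all 4 lists. Chd2, a chromatin remodeller, had a site in intron 3 of 38 at rank 24 in GCN2 KO no-Leu cells, 13 in GCN2 KO Leu cells, 61 in WT no-Leu cells and 43 in WT Leu cells. Both GCN2 KO ranks were higher than both WT ranks. Tfe3, a transcription factor of lysosomal genes, had a site in intron 2 of 9 on chromosome X at rank 58 in GCN2 KO no-Leu, 311 in GCN2 KO Leu, 25 in WT no-Leu and 65 in WT Leu cells. Tfe3 stood higher without leucine than in complete medium in both genotypes. Ubap1, a subunit of the ESCRT-I sorting complex, ranked 152 in GCN2 KO no-Leu, 70 in GCN2 KO Leu, 13 in WT no-Leu and 130 in WT Leu cells, and its highest place was in WT no-Leu cells. Snx29, a sorting nexin gene, ranked 38 in GCN2 KO no-Leu, 48 in GCN2 KO Leu, 26 in WT no-Leu and 24 in WT Leu cells. Nploc4, a cofactor of the p97 segregase, ranked 37 in GCN2 KO no-Leu, 26 in GCN2 KO Leu, 81 in WT no-Leu and 59 in WT Leu cells. Exoc6b ranked 60 in GCN2 KO no-Leu, 27 in GCN2 KO Leu, 219 in WT no-Leu and 38 in WT Leu cells. Itga8, the integrin alpha 8 chain, had a site in intron 26 of 29 at rank 35 in GCN2 KO no-Leu, 57 in GCN2 KO Leu, 67 in WT no-Leu and 170 in WT Leu cells. Col4a1, a chain of basement-membrane collagen, ranked 486 in GCN2 KO no-Leu, 485 in GCN2 KO Leu, 396 in WT no-Leu and 170 in WT Leu cells at intron 2 of 51. Ranks in lists of unequal length do not measure a change in binding.

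**Figure D2:**
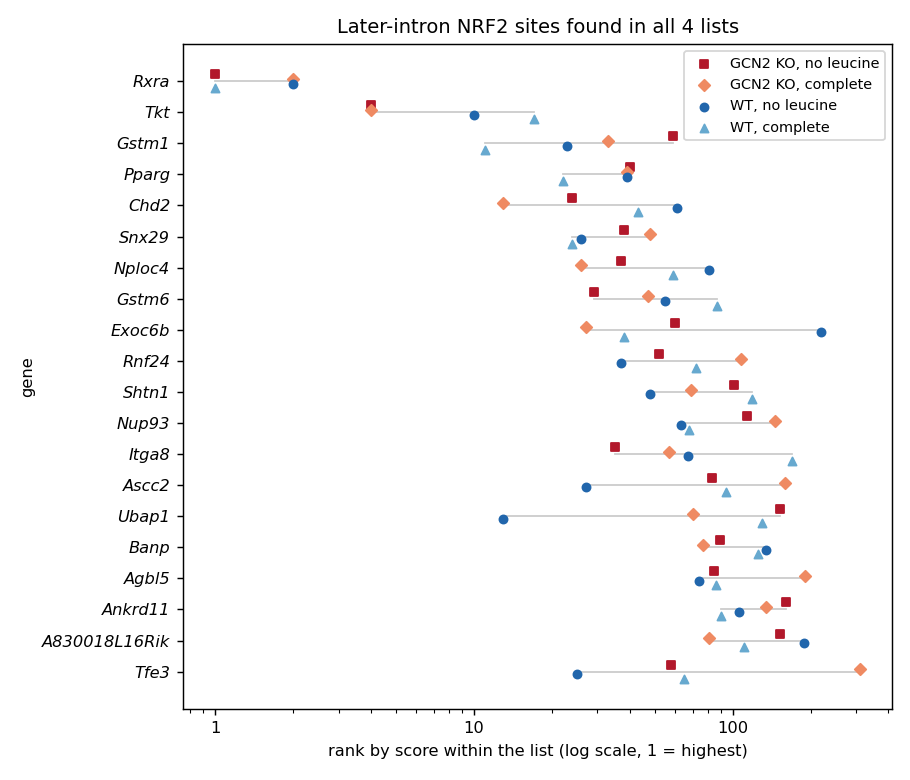
Rank by score within each list (log scale, 1 is the highest) of the 20 sites present in all 4 lists with the best mean score percentile, each row named by its host gene or, for Rnf24, the nearest gene. Rxra and Tkt lead the plot at ranks 1 to 17, a range that Gstm1, Chd2 and Ubap1 also reach in 1 list each, and Exoc6b, Ubap1 and Tfe3 spread most, with Tfe3 between 25 and 311.

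Merged across lists, the members formed 3511 regions. Of these, 3297 (93.9%) had a peak in 1 list, 117 (3.33%) in 2 lists, 37 (1.05%) in 3 lists and 60 (1.71%) in all 4. The same merging was not done for all peaks, so these shares have no background beside them. Counted by list, between 10.3 and 23.2% of members overlapped another list, against 12.6 to 27.0% of all peaks. The sites in all 4 lists were placed closely, their window starts spread over a median of 41.5 bp and at most 122 bp. In 50 of the 60 the peak met the rule in every list, and in 10 at least 1 list gave it another annotation, such as the repeat annotation at Ascc2, Agbl5 and Smyd4. Sites in 3 or 4 lists had a median GC fraction of 0.507, against 0.525 for those in 1 list, and a median place in the top 6.09% by score, against 57.4%. They were no closer to a TSS, at a median of 31.3 kb against 28.4 kb. Score and recurrence moved together here, and the part of score in the lower GC was not tested.

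**Figure D3:**
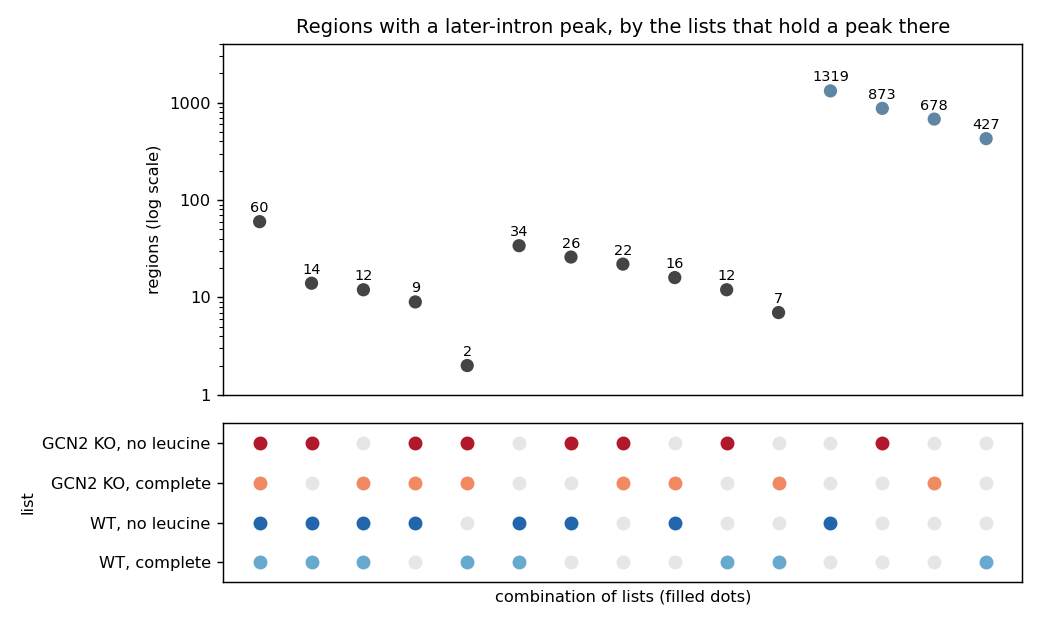
Number of merged regions (upper part, log scale) for each combination of lists that holds a peak (filled dots below). The 60 regions in all 4 lists outnumber each combination of 2 or 3 lists, and the single-list regions number 873 in GCN2 KO no-Leu, 678 in GCN2 KO Leu, 1319 in WT no-Leu and 427 in WT Leu cells.

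Recurrence followed the score closely. In GCN2 KO no-Leu cells 135 of 1008 members overlapped a peak of another list by at least 1 bp, which is 13.4% (11.4 to 15.7%), against 14.0% of all peaks. The share was 15.0% (12.6 to 17.7%) against 18.4% of all peaks in GCN2 KO Leu cells, 10.3% (8.82 to 12%) against 12.6% in WT no-Leu cells and 23.2% (19.8 to 26.9%) against 27.0% in WT Leu cells. First-intron peaks recurred at 16.8% in GCN2 KO no-Leu, 23.0% in GCN2 KO Leu, 14.5% in WT no-Leu and 30.6% in WT Leu cells. In all 4 lists the members' share was the lowest of the 3. With every list cut to its 2336 highest peaks, the members' share was 21.3% in GCN2 KO no-Leu, 17.7% in GCN2 KO Leu, 24.4% in WT no-Leu and 21.0% in WT Leu cells, so the WT no-Leu list, which had the lowest share at full length, had the highest. In the top 10% by score 81.6% of members recurred in GCN2 KO no-Leu cells, 90.9% in GCN2 KO Leu cells, 78.4% in WT no-Leu cells and 44 of 44 in WT Leu cells. Between the top 10% and the top 50% the members' share was again the lowest in each list. It was 9.18% (6.52 to 12.5%) in GCN2 KO no-Leu cells, against 11.1% of first-intron peaks and 10.7% of all peaks that were not members. In GCN2 KO Leu cells it was 14.9% (10.9 to 19.6%), against 18.2% of both. In WT no-Leu cells it was 7.53% (5.3 to 10.3%), against 12% of first-intron peaks and 10.9% of the others, and in WT Leu cells it was 28.4% (22.6 to 34.9%), against 35.2% of first-intron peaks and 36.6% of the others. The exact intervals of the classes overlap in this band. In the lower 50% the members' shares were 5.29% in GCN2 KO no-Leu, 6.21% in GCN2 KO Leu, 2.15% in WT no-Leu and 7.82% in WT Leu cells. First-intron peaks recurred there at 3.9% in GCN2 KO no-Leu, 5.22% in GCN2 KO Leu, 2.76% in WT no-Leu and 6.67% in WT Leu cells. Members were thus the lowest class of that band in the WT no-Leu list only. In the top 10% their share was above that of the peaks that were not members in each list. The intervals overlap in these bands too. Among all peaks that were not members, the share recurring in the top 10% was 78.5% in GCN2 KO no-Leu, 84.7% in GCN2 KO Leu, 78.2% in WT no-Leu and 94.7% in WT Leu cells, and in the lower 50% it was 3.13% in GCN2 KO no-Leu, 6.43% in GCN2 KO Leu, 2.99% in WT no-Leu and 8.77% in WT Leu cells.

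**Figure D4:**
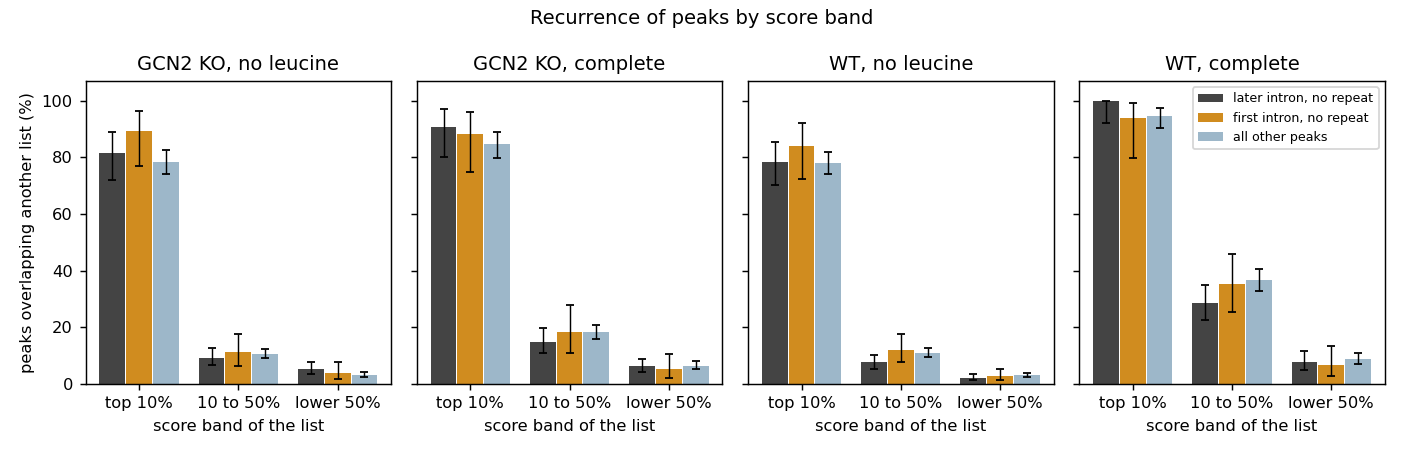
Share of peaks that overlap a peak of any other list, by score band, for later-intron peaks (dark), first-intron peaks (orange) and all peaks that are not members, first-intron peaks included (light); whiskers are 95% exact binomial intervals. The top 10% stands at 78.2% or more in every class and list, and no bar for the lower 50% exceeds 8.77%.

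Few members were shared between the WT lists with and without leucine. Of 1472 members without leucine, 110 overlapped a peak in complete medium, or 7.47% (6.18 to 8.94%), and of 556 members in complete medium, 110 overlapped a peak without leucine, or 19.8% (16.6 to 23.3%). For all peaks the shares were 8.96% without leucine and 22.9% in complete medium, so the members' sharing lay near that background. When every list was cut to its 2336 highest peaks, the shares became 19.7% without leucine and 18.2% in complete medium. Counting 1 site per gene, WT no-Leu members with no peak in the WT Leu list were led by Htatip2 at rank 195. It is an oxidoreductase gene listed among NRF2 targets. Pitpnm2 at 197, 1600014C10Rik at 206, the scaffold gene Dlg5 at 246 and the filamin gene Flnc at 269 followed. WT Leu members with no peak in the WT no-Leu list were led by Atxn1, the ataxin 1 gene, at rank 224. Aggf1 at 249, Mapkap1, an mTORC2 subunit gene, at 279, and Sec24d and Pip4p2, both at 292, followed. Rank 195 of 5980 is the highest place of any WT member missing from the other WT list, so the strongest WT members all had a partner. Of 1204 host genes without leucine and 502 in complete medium, 195 were shared, or 16.2% without leucine and 38.8% in complete medium. Of these, 96 had their peaks at different sites only. Host sharing over all peaks is not given, so here and below these shares have no background beside them.

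Leucine withdrawal in GCN2 KO cells was compared in the same way. Of 1008 members without leucine 87 overlapped a peak in complete medium, or 8.63% (6.97 to 10.5%) against 9.33% of all peaks. Of 798 members in complete medium 88 overlapped a peak without leucine, or 11% (8.94 to 13.4%) against 13.7% of all peaks. At equal list lengths the shares were 14.6% without leucine and 12.5% in complete medium. Without a partner in the GCN2 KO Leu list were 1110051M20Rik at rank 62 and Gbe1, the glycogen branching enzyme, at 103. The same held for the ubiquitin ligase gene Herc3 at 106, the dynein light chain gene Dynlt1b at 142 and the transcription factor gene Gata3 at 196. Without a partner in the leucine-free list were Dhx57 at rank 44, Mphosph8, a subunit of the HUSH silencing complex, at 124, Uspl1 at 200, a site in intron 6 of Nup93 at 214 and Gipc2 at 239. The site in Gbe1 ranked 31 in WT no-Leu cells and 102 in WT Leu cells, and that in Dhx57 ranked 234 in both WT lists, so each is missing from 1 list of the 4. Of 838 host genes without leucine and 685 in complete medium, 205 were shared, or 24.5% without leucine and 29.9% in complete medium, 120 of them at different sites only. The leucine comparisons of the 2 genotypes use separate libraries.

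Between genotypes in complete medium, 75 of 798 GCN2 KO members overlapped a WT peak, or 9.40% (7.46 to 11.6%) against 11.6% of all peaks, and 74 of 556 WT members overlapped a GCN2 KO peak, or 13.3% (10.6 to 16.4%) against 15.6% of all peaks. The 13.3% here and the 19.8% of the same WT members that met a WT peak without leucine have intervals that do not overlap, but the WT no-Leu list is also the longer one. At equal lengths the WT Leu members shared 12.8% with GCN2 KO cells and 18.2% with WT no-Leu cells, with intervals of 10.1 to 15.8% and 15.0 to 21.6% that overlap. GCN2 KO Leu members with no partner in the WT Leu list were led by Slc20a1 at rank 124. Next came Lrp8, a receptor for apolipoprotein E and reelin, at 175, Uspl1 at 200, Xkr5 at 202 and Nup93 at 214. The WT no-Leu list did hold a peak at the sites in Slc20a1, at rank 1403, Uspl1, at 331, and Nup93, at 463. WT Leu members with no partner in the GCN2 KO Leu list were led by 9330175M20Rik at rank 90 and by Aopep and Gbe1, both at 102. A site nearest Prdm14 at 141 and Ssh2, a cofilin phosphatase gene, at 150 came next. The site in Gbe1 had a peak in the GCN2 KO no-Leu list, at rank 103.

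Without leucine, 101 of 1008 GCN2 KO members overlapped a WT peak, or 10% (8.24 to 12%) against 10.4% of all peaks, and 98 of 1472 WT members overlapped a GCN2 KO peak, or 6.66% (5.44 to 8.05%) against 7.96% of all peaks. At equal list lengths the shares were 17.2% of GCN2 KO and 15.5% of WT members. GCN2 KO no-Leu members with no partner in the WT no-Leu list were led by Pip4p2, a phosphoinositide phosphatase gene, at rank 51. Next came Herc3 at 106, Mta3, a subunit gene of the NuRD complex, at 202, Arhgap42 at 224 and Ppp1r42 at 246. The WT Leu list did hold a peak at the sites in Pip4p2, at rank 292, Herc3, at 470, and Ppp1r42, at 1083. Among the WT no-Leu members with no partner in the GCN2 KO no-Leu list were Mphosph8 at rank 83 and the zinc finger gene Jazf1 at 104. D5Ertd579e at 119 and Slc11a1, a divalent metal transporter gene, at 132 were others. Mphosph8, Jazf1 and D5Ertd579e had a peak in both complete-medium lists as well, so their absence concerned the GCN2 KO no-Leu list alone. Host genes shared between the lists numbered 286, of 838 in GCN2 KO cells (34.1%) and 1204 in WT cells (23.8%), 192 of them at different sites only. A shared site brings a shared host, and a long gene can be shared without one, so host sharing is no measure of shared sites. These 4 comparisons share libraries with each other, and their values are therefore not independent.

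Regions in exactly 2 lists were split unevenly. There were 34 in both WT lists, 26 in both lists without leucine, 22 in both GCN2 KO lists and 7 in both complete-medium lists, and the crossed pairs held 16 (GCN2 KO Leu with WT no-Leu) and 12 (GCN2 KO no-Leu with WT Leu). The complete-medium lists are the shortest, at 3141 peaks in GCN2 KO and 2336 in WT cells. Those without leucine are the longest, at 4600 in GCN2 KO and 5980 in WT cells. The part of list length was not tested, and the split over all peaks was not made for these pairs. The best-scoring regions of these pairs are named here after their values were seen. Common to the no-Leu lists and absent from the Leu lists were Dynlt1b at rank 142 in GCN2 KO and 442 in WT cells, Taf3, a gene of the general transcription machinery, at 471 in GCN2 KO and 273 in WT cells, and Alpk3 at 315 in GCN2 KO and 463 in WT cells. In both WT lists only were 9330175M20Rik, at rank 204 without leucine and 90 in complete medium, Zfhx3, a homeobox gene, at 137 without leucine and 165 in complete medium, and Hmga1, a chromatin architecture gene, at 269 without leucine and 213 in complete medium. In both GCN2 KO lists only were Gm16039, with the ARE core printed above, Gne, the first enzyme of sialic acid synthesis, at 907 without leucine and 570 in complete medium, and Spen at 253 without leucine and 1152 in complete medium. In both complete-medium lists only were Atxn1 at 333 in GCN2 KO and 224 in WT cells and Vwa8 at 351 in GCN2 KO and 634 in WT cells.

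Among sites in 3 lists, several were missing from a single library. Tsc2, whose product restrains mTORC1, ranked 465 in GCN2 KO no-Leu cells, 292 in WT no-Leu cells and 199 in WT Leu cells, and had none in GCN2 KO Leu cells. Arntl, the clock gene of BMAL1, ranked 263 in GCN2 KO Leu cells, 359 in WT no-Leu cells and 288 in WT Leu cells, with none in GCN2 KO no-Leu cells. Htatip2 carried a pair of sites in intron 3 of 5. The farther, 4641 bp from the TSS, ranked 105 in GCN2 KO no-Leu cells, 348 in GCN2 KO Leu cells and 208 in WT no-Leu cells. The nearer ranked 1318 in GCN2 KO Leu cells and 195 in WT no-Leu cells. Neither Htatip2 site had a peak in WT Leu cells, the shortest list. Of the 37 regions in 3 lists, 14 missed GCN2 KO in complete medium, 12 missed GCN2 KO without leucine, 9 missed WT in complete medium and 2 missed WT without leucine, the longest list.

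Most NRF2 target genes hosted no member, but many of the member regions in target genes recurred. Of 60 genes listed as targets, 8 hosted a member in GCN2 KO no-Leu, 6 in GCN2 KO Leu, 8 in WT no-Leu and 7 in WT Leu cells. That is 14 genes in any list, and Tkt, Gstm1 and Fech hosted a member in all 4. Of all 21900 protein-coding genes, 3.73% hosted a member in GCN2 KO no-Leu, 3.05% in GCN2 KO Leu, 5.37% in WT no-Leu and 2.23% in WT Leu cells. Over the 4 lists the targets held 16.0 members per Mb of gene (exact Poisson interval 10.9 to 22.6), against 3.49 (3.38 to 3.6) over all protein-coding genes. With each site counted once they held 8 regions per Mb (4.57 to 13), against 3.20 (3.09 to 3.31). Of their 16 member regions 7, or 43.8%, were in 2 or more lists, against 6.10% of the regions in all protein-coding genes. The gene lists were chosen with earlier results of these data known, so these contrasts are descriptions and not tests. The recurring 7 were the pair in Htatip2 and 1 each in Tkt, Gstm1, Gstm3, Fech and Abcc5. The 9 regions in 1 list lay in Abcc1, Abcc2, Abcc4 and again Abcc5, export pump genes, in Gpx4, the lipid peroxide-reducing enzyme, in Gsta3, Hip1 and Slc7a11 and in Pgd of the pentose phosphate pathway. Slc7a11, the cystine importer, had a site in intron 2 of 11 in WT no-Leu cells alone, at rank 368.

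Genes of the amino acid response hosted 7 members, all at different sites. Of 46 ATF4 and amino acid response genes, 1 hosted a member in GCN2 KO no-Leu cells, 2 in GCN2 KO Leu cells, 4 in WT no-Leu cells and 0 in WT Leu cells, where the exact interval for 0 members reaches 3.18 per Mb. Over the 4 lists they held 6.03 members per Mb (2.42 to 12.4), against 3.49 over all protein-coding genes, which lies inside that interval. All 7 regions were in 1 list, beside 6.10% in 2 or more lists over all protein-coding genes. In WT no-Leu cells they were in Slc7a11, which is on the target list too, in the amino acid carrier genes Slc1a4 and Slc7a1, at ranks 1524 and 3854, and in Eif2ak4 itself, at rank 2557 in intron 3 of 38. Slc1a5 and Slc6a9 had theirs in GCN2 KO Leu cells at ranks 2540 and 1770. The WT list without leucine, which held the most of them, is also the longest, and the WT Leu list the shortest.

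Of 46 heme and iron genes, the number that hosted a member was 4 in GCN2 KO no-Leu, 2 in GCN2 KO Leu, 2 in WT no-Leu and 4 in WT Leu cells, and 7 did in any list. Fech gave 4 of their 13 members. Slc11a1 had a site in both WT lists, at rank 132 without leucine and 344 in complete medium. The regions in Aco1, Abcb10, Abcb8, Alad and Steap3 were in 1 list each and ranked 1509 or lower. The list held 10.1 members per Mb (5.35 to 17.2), against 3.49 over all protein-coding genes. With each site counted once it held 6.96 regions per Mb (3.18 to 13.2), against 3.20 (3.09 to 3.31). Of 27 genes of the AP-1, CNC and Maf families, Bach2 hosted the members, 1 in GCN2 KO Leu cells and 1 in WT no-Leu cells, at different sites. These genes held 2.41 members per Mb (0.292 to 8.72), an interval that includes the 3.49 over all protein-coding genes.

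Most regions in structural genes of fibroblasts and in long neuronal genes were in 1 list. That was also so over all protein-coding genes, where 6.10% of regions were in 2 or more lists. Of 54 fibroblast matrix genes, 8 hosted a member in GCN2 KO no-Leu cells, 5 in GCN2 KO Leu cells, 6 in WT no-Leu cells and 3 in WT Leu cells. They held 7.46 members per Mb (4.82 to 11), above the 3.49 (3.38 to 3.6) over all protein-coding genes. Of their 22 regions 1 (4.55%), the one in Col4a1, was in 2 or more lists. With each site counted once they held 6.56 regions per Mb (4.11 to 9.93), against 3.20 (3.09 to 3.31) over all protein-coding genes. The matrix interval overlaps that of the NRF2 targets. Of 75 actin cytoskeleton and adhesion genes, 8 hosted a member in each list, at 3.16 per Mb (2.27 to 4.29). Of their 37 regions 3 (8.11%) recurred, among them Itga8. Of 63 neuron and synapse genes, whose median length is 763 kb, the number that hosted a member was 20 in GCN2 KO no-Leu, 18 in GCN2 KO Leu, 14 in WT no-Leu and 12 in WT Leu cells, at 1.97 per Mb (1.61 to 2.38). Of their 102 regions 4, or 3.92%, were in 2 or more lists, among them those in Grid1, Tenm2 and Tenm4. A count of genes with a peak and the recurrence of their peaks thus ordered these lists differently.

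**Figure D5:**
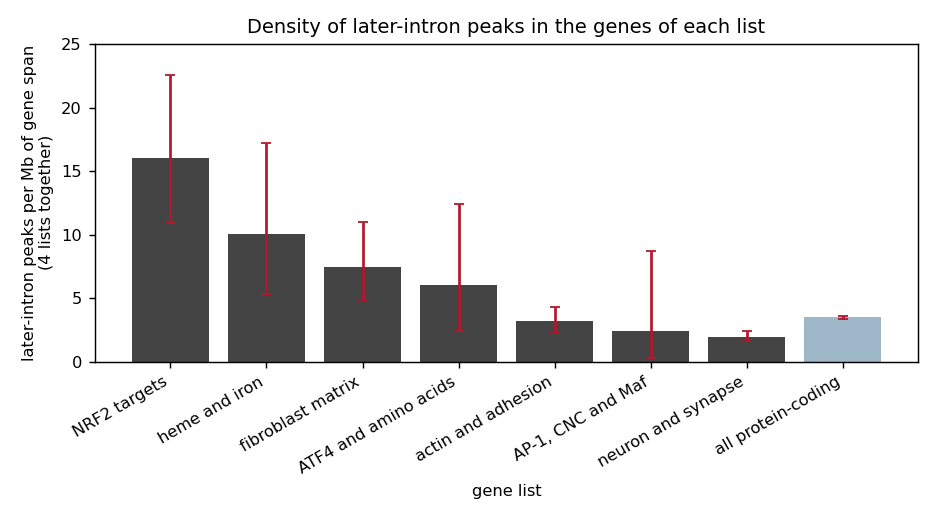
Later-intron peaks per Mb of gene span, summed over the 4 NRF2 lists, for 7 gene lists (dark bars) and all protein-coding genes (light bar); whiskers are 95% exact Poisson intervals, which treat peaks as independent although a site found in 4 lists counts 4 times. NRF2 targets stand at 16.0 per Mb and neuron and synapse genes at 1.97, on either side of 3.49 for all protein-coding genes.

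The genes with the most separate regions were long ones. Cdh4, a cadherin gene of 457 kb, held 18 regions, of which 1 was in 2 or more lists. Camta1, a calmodulin-binding transcription factor gene of 802 kb, held 13, also with 1 in 2 or more lists. Rbfox3, a neuronal splicing regulator gene, held 12 and none of them recurred, and Gabbr2, a GABA-B receptor subunit gene, held 11. The best rank in any list was 482 for Cdh4, 379 for Camta1, 383 for Rbfox3 and 907 for Gabbr2, far below the strongest sites described above. Of 2363 host genes 74.4% held 1 region, 16.1% held 2 and 9.48% held 3 or more.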

How the data were processed

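NRF2 ChIP-seq was done in MEFs of 2 genotypes with and without leucine, 1 library per group, with 1 input library per genotype from complete medium that was not analysed here by itself. Per the labels' protocols, reads were single and 50 bp long. The submitters' processing notes name BWA 0.7.12, MACS2 2.1.0, HOMER 4.7 and mm10, with no settings. Per the file headers, each library had its own peak calls, made with the Leu input of its genotype as control, and HOMER annotated them. The deposited peak score is a whole number with a minimum of 13 in each list, and the sources used here do not name the caller's column behind it. The CpG and GC content were deposited by the authors as a fraction of the window.

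With Python 3.11.15, pandas 2.3.3 and scipy 1.17.1, members were selected by annotation, ranked by score within their list (ties share the highest place) and called shared at an overlap of 1 bp or more. Overlapping peaks were merged into regions. The overlap step and the intervals of shares and of medians were tested on simulated data, and the merging step was not. Host transcripts and gene spans came from the GRCm38.p6 RefSeq table. A host was kept when its span held the peak. Intervals of shares are exact Clopper-Pearson, those of medians come from order statistics and those of densities are exact Poisson, all at 95% and for counting error only. Depth is unknown.

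Named sites were those in 3 or 4 lists, the 5 highest-scoring of each list, the 5 highest-scoring without a partner in each comparison, up to 5 genes with the most regions, and members of the 7 gene lists. Not every site that meets these rules is described, and some are not reported here. The members and gene lists were chosen with earlier results of these data known. Alternatives changed the score cut, list length, overlap, window width, first intron counted, partner class and chromosomes.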

Additional observations from a re-analysis of the deposited data

Results flagged for a closer look

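In 6 of 10 measures of the later-intron peaks, the list without leucine differed from the complete-medium list in one direction in GCN2 KO cells and in the opposite direction in WT cells. With 1 library per group none of these differences was tested. The measures are not independent, because several describe the same distances to the TSS. The members' share of the list was 3.5 percentage points lower without leucine in GCN2 KO cells (21.9% without leucine, 25.4% in complete medium) and 0.8 points higher in WT cells (24.6% without leucine, 23.8% in complete medium), a difference of differences of -4.3 points. At equal list lengths the WT shares were 22.4% without leucine and 23.8% in complete medium, so the opposite direction was not kept.

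The median distance to the TSS differed by 3.09 kb in GCN2 KO cells (31.7 kb without leucine, 28.6 kb in complete medium) and by -5.7 kb in WT cells (25.6 kb without leucine, 31.3 kb in complete medium), which is 8.79 kb between genotypes. The share within 10 kb of a TSS differed by -4.0 points in GCN2 KO and 4.1 points in WT cells (-8.1 points between them), and the share beyond 100 kb by 1.7 points in GCN2 KO and -3.7 points in WT cells (5.4 points). The median host gene length differed by 7.88 kb in GCN2 KO and -27.3 kb in WT cells (35.2 kb between them). The share in the last intron differed by -0.2 points in GCN2 KO and 1.8 points in WT cells (-2.0 points). The WT list without leucine is the longest and the WT Leu list the shortest, and at equal list lengths the median distance kept its opposite directions, at 34.4 kb without leucine and 29.8 kb in complete medium in GCN2 KO cells and 27.5 kb without leucine and 31.3 kb in complete medium in WT cells. For the other 4 measures the part of list length was not tested. Over all peaks the median distance had opposite directions as well, so this was not particular to the members. For all peaks it was 31.5 kb without leucine and 28.5 kb in complete medium in GCN2 KO cells. In WT cells it was 24.4 kb without leucine and 27.9 kb in complete medium.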

How the results depend on the processing

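Of 100 alternative values for the results that answer a comparison, 69 moved by less than their counting interval and 31 by more. A reciprocal overlap of 50%, a partner that must itself be a member, and chromosomes 1 to 19, X and Y gave no value outside it. With the higher-scoring 50% of each list, members made up 20.4% of the GCN2 KO no-Leu list, 21.9% of the GCN2 KO Leu list and 23.1% of the WT no-Leu list. Recurrence in any other list rose to 20% in GCN2 KO no-Leu, 26% in GCN2 KO Leu, 20.8% in WT no-Leu and 38.2% in WT Leu cells. The shared members were then 15.8% without leucine and 34.4% in complete medium for WT, 13.4% without leucine and 19.3% in complete medium for GCN2 KO, 18.4% of GCN2 KO and 23.3% of WT Leu members, and 17.3% of GCN2 KO and 13.9% of WT no-Leu members. With 2336 peaks in each list, members made up 20.5% in GCN2 KO no-Leu cells and 22.4% in WT no-Leu cells, and their recurrence was 21.3% (GCN2 KO no-Leu) and 24.4% (WT no-Leu). The shared members were 19.7% in WT no-Leu cells, 14.6% in GCN2 KO no-Leu cells, 12.9% of GCN2 KO Leu members, and 17.2% of GCN2 KO and 15.5% of WT no-Leu members. Counting from intron 3, members made up 17.4% of the GCN2 KO no-Leu, 19.9% of the GCN2 KO Leu, 19.4% of the WT no-Leu and 18.1% of the WT Leu list, and 6.87% without leucine and 8.80% in complete medium were shared in GCN2 KO cells. Widening peaks by 500 bp raised recurrence in the WT no-Leu list to 12.6%. Beyond how these alternatives are built (fewer peaks, a stricter rule, wider windows), the cause was not tested. Of 68 further values 17 moved. No paired analysis was possible because each group has 1 library, and for the same reason no replicate could be left out. Depth is unknown, so a site missing from a list is below the authors' threshold, not shown to be unbound.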

Other observations

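Chromosome X held few later-intron peaks, 9 of 3834 (0.235%). That is 0.196 per Mb of protein-coding gene span over the 4 lists, against a median of 3.51 per Mb over chromosomes 1 to 19, whose lowest was 2.41 on chromosome 18 and whose highest was 5.63 on chromosome 11. All peaks together were also few on X, at 74 (0.461%). The site in Tfe3, present in every list, gave 4 of the 9.

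For 32 members (0.835%) the annotation named a transcript whose gene lies elsewhere in the genome, and for 30 of them this was a microRNA transcript. The site nearest Rnf24, ranked 52 in GCN2 KO no-Leu cells, 108 in GCN2 KO Leu cells, 37 in WT no-Leu cells and 72 in WT Leu cells, is annotated to intron 2 of 2 of Mir3098, which the RefSeq table places on chromosome 6, while the site is on chromosome 2. Mir466n, which the table places on chromosome 2, was named for 8 members, all on chromosome 11.

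Among the genes with the most regions, Cdh4 held 3.94 regions per 100 kb and Gabbr2 3.34, with 1 region each in more than 1 list.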
